A study of Mus musculus with 6 samples.

Results

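RNA that came down with AGO2 in Dicer WT macrophages was set against the RNA of the same genotype before precipitation. The comparison used 2 of the 6 arrays of the series, the WT AGO2-RIP array and the WT input array, and its members were the 14397 genes, of 34536 on the array design, whose probe was well above background on both. RNA immunoprecipitation (RIP) here means that magnetic beads with a monoclonal mouse antibody to AGO2 were kept with a cleared detergent lysate for 7 hours, and that RNA was then extracted from the beads. A WT IgG-RIP array, from beads with control IgG, and the same 3 fractions of Dicer KO cells gave values to set beside it, with 1 array for each of these groups.

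The WT cells had the genotype LysM-Cre/Dicer wt/wt/Apoe-/- and the KO cells LysM-Cre/Dicer flox/flox/Apoe-/-, so Cre recombinase under the myeloid LysM promoter and the loss of Apoe were common to all 6 samples. Per the labels, marrow was taken from male mice of 6 to 8 weeks and grown for 7 days in L929-conditioned medium, a source of macrophage growth factor, to give bone marrow-derived macrophages. Whether the fractions of a genotype came from the same cell preparation, and from how many mice, the labels used here do not say.

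AGO2 is an Argonaute protein that holds a miRNA and, guided by bases 2 to 8 of it (the seed), binds transcripts with a matching site, most often in the 3′ untranslated region. GW182 proteins (the Tnrc6 genes) then recruit deadenylases to the bound transcript. In myeloid cells the let-7 family, miR-142, miR-223 and miR-155 are among the well-studied miRNAs, and let-7 is known for holding down growth and cell cycle genes such as Hmga2.

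The miRNAs whose seed matches had the highest shares of higher probes are shown first, with miR-223-3p and miR-155-5p, whose matches had shares near the background, for contrast. They are given as RefSeq gives them (GRCm38.p6), with the seed in capitals. All 9 members of the let-7 family searched, miR-98 among them, share 1 seed.
let-7a-5p: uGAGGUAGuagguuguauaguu
let-7g-5p: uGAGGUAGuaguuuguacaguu
miR-98-5p: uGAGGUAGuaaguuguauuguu
miR-142a-3p: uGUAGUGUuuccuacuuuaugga
miR-19b-3p: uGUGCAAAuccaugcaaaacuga
miR-223-3p: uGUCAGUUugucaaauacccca
miR-155-5p: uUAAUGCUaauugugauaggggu

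The reverse complement of the let-7 seed is the letters CTACCTC. The stretches of array probes below hold it, in capitals. They are the 5 with the highest AGO2-RIP minus input difference among genes named by accession, the brightest probe with the match on the AGO2-RIP array (Gng5), and 2 probes that were lower in AGO2-RIP, for contrast. They were chosen after their values were seen. Coordinates are those of the array files (mm9), and whether a site lies in a coding or an untranslated exon was not analysed here.
Zfp607a, chr7:28665420-28665436, plus strand: taCTACCTCtggtggct
Zfp975, chr7:49915502-49915531, minus strand: ctgagccttctttgtCTACCTCactatgtt
Pced1b, chr15:97216042-97216068, plus strand: caagcattcttaCTACCTCccccttgc
Hmga2, chr10:119798740-119798769, minus strand: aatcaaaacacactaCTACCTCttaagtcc
Glmn, chr5:107978095-107978124, minus strand: aaatcaaatcaaagtCTACCTCtgaagaaa
Gng5, chr3:146168406-146168435, plus strand: gtcagtccttaacatCTACCTCtttgaatt
Cdk4, chr10:126503188-126503217, plus strand: cctcgagaggtatctCTACCTCgaggagcc
Tgm2, chr2:157942431-157942457, minus strand: caagttagcccactcCTACCTCtctgt

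Levels are log2 signals relative to the 75th percentile of the array, so that 0 is the signal at that percentile. Differences are AGO2-RIP minus input on that scale, and 2-fold is a difference of 1. With 1 array a side no difference has a replicate check, no test was possible and no p-value is given. Probes printed more than once put the spot noise of a difference at 0.18 log2 (SD, 49 probes), a figure blind to the spread between cultures, precipitations and amplifications. The WT AGO2-RIP array had 44.6% of its spots well above background and the WT input array 37.6%, with 0 saturated spots on either.

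The arrays went against a label. Xist, the RNA that coats the silenced X in females, was above background on 3 of 3 WT arrays and 0 of 3 KO arrays, whereas the Y-linked genes Ddx3y and Eif2s3y were so on 0 WT and 3 KO arrays, although all samples were labelled male. Genotype also went with the row of the slide, so the KO pair serves below only as a second pair of arrays. Of 33 macrophage identity genes, 31 were above background on the WT AGO2-RIP and 31 on the WT input array. The exceptions on the input array were Cd163 and Lyz2, the lysozyme gene of the LysM locus, which was at -4.30 in WT AGO2-RIP and -2.19 in WT input and not above background on either. Of the defining genes of other cells, 4 of 13 neutrophil, 5 of 15 lymphocyte, 2 of 9 erythroid and mast cell, 2 of 9 fibroblast and 4 of 14 osteoclast and dendritic cell markers were above background in AGO2-RIP, against 3, 2, 1, 1 and 5 in input. The summed linear level of the macrophage genes was 2552 in AGO2-RIP and 3708 in input, and that of the neutrophil markers 13.0 and 12, with 94.1 and 77.7 for the osteoclast and dendritic cell markers, in units of the 75th percentile. Most of the osteoclast and dendritic cell sum lay in its highest marker, at log2 6.27 in AGO2-RIP and 6.01 in input. Fewer cells of a type and less RNA per cell cannot be told apart in bulk RNA.

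AGO2-RIP exceeded input by 2-fold or more in 2136 (14.8%) of the 14397 genes and fell short of it by as much in 3790 (26.3%). The counts were 614 higher and 1166 lower at 4-fold, and 157 higher and 177 lower at 8-fold, so the extremes were about even. The median difference was -0.24 and the quartiles -1.05 and 0.53. The balance depended on the scaling: higher genes made up 36.0% of those past 2-fold here, 23.5% with arrays centred on the median (1515 higher, 4936 lower) and 54.5% with the percentile taken over detected spots (3192 higher, 2664 lower). These settings moved the median of all genes by -0.28 and 0.35, and quantile normalization moved it by 0.15, with 2506 higher and 2918 lower (46.2%). The list medians below are therefore to be read against the median of all genes, -0.24, and the list counts against the shares of 14.8% higher and 26.3% lower. In bulk RNA of this kind a difference can lie in the share of a transcript bound to AGO2 or in any unequal recovery of transcripts, which cannot be told apart.

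**Figure D1:**
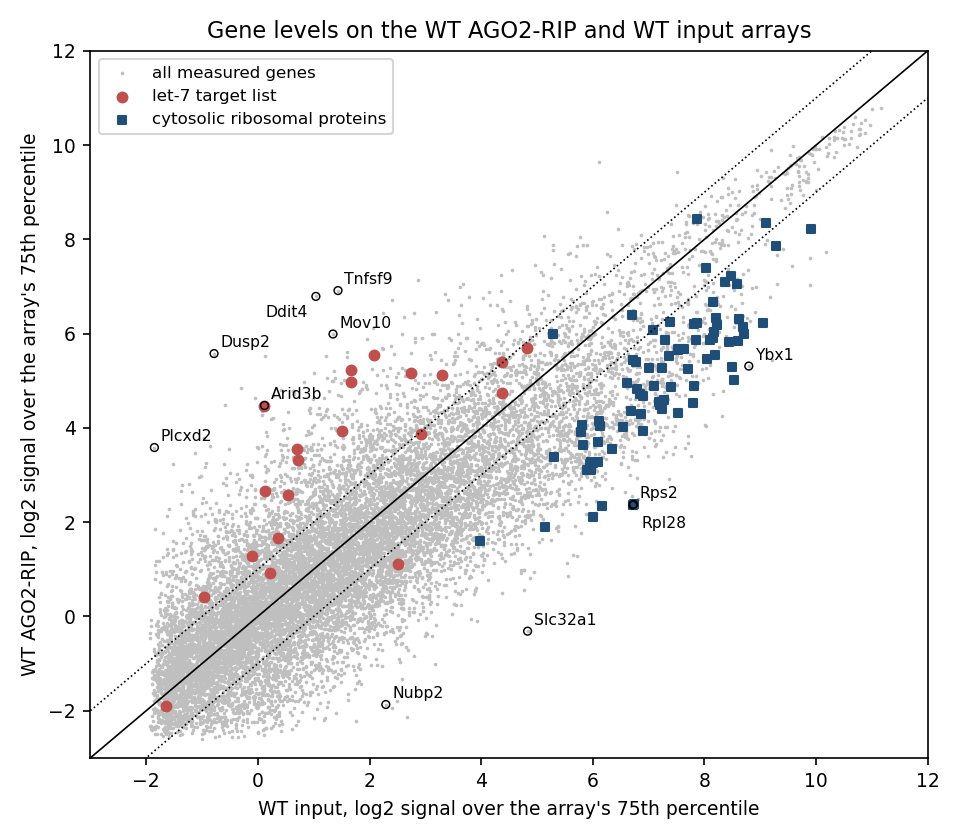
Level of each of the 14397 genes on the WT AGO2-RIP array (vertical) and the WT input array (horizontal), as log2 signal over the array's 75th percentile, with equality (solid) and 2-fold either way (dotted). Let-7 target list members (circles) lie mostly above the upper dotted line and cytosolic ribosomal protein genes (squares) mostly below the lower one.

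The highest gene was Dusp2, a phosphatase that inactivates MAP kinases (chromosome 2, 127163930 to 127163989, plus strand). It was at 5.58 in AGO2-RIP, -3.30 in IgG-RIP, where it was not above background, and -0.79 in input, a difference of 6.36 or 82.2-fold. Ddit4, an inhibitor of mTOR signalling, had 6.79 in AGO2-RIP, 1.45 in IgG-RIP and 1.04 in input, a difference of 5.75. Tnfsf9, a TNF-family ligand that costimulates T cells, had 6.91 in AGO2-RIP, 0.97 in IgG-RIP and 1.44 in input, a difference of 5.48. In all 3 genes the AGO2-RIP array stood alone, and the IgG-RIP level lay near or below that of input.

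The next were Plcxd2 (5.44), a phospholipase C-like gene, Zc3hav1l (5.40), a relative of the antiviral zinc finger protein ZAP, Chac1 (5.15), a glutathione-degrading enzyme of stress responses, Klhdc3 (5.07) and Dsel (4.69). Mov10, an RNA helicase that associates with Argonaute proteins, had 5.99 in AGO2-RIP, 3.37 in IgG-RIP and 1.35 in input, so its difference of 4.65 stood beside an IgG-RIP minus input difference of 2.02. The list of 15 was completed by Pla2g6 (4.59), a calcium-independent phospholipase, the cyclin genes Ccnj (4.47) and Ccne1 (4.38), the ubiquitin ligase gene Rnf111 (4.42), Arid3b (4.36), a DNA-binding protein, and Tsc22d3 (4.31), which encodes the glucocorticoid-induced leucine zipper. Among these 15 the IgG-RIP minus input difference passed 2-fold for Mov10 (2.02) and Zc3hav1l (1.06) only, with Dusp2 and Ccnj not above background in IgG-RIP.

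The lowest gene was Slc32a1, which loads GABA and glycine into synaptic vesicles, at -0.31 in AGO2-RIP, 0.92 in IgG-RIP and 4.83 in input. Its other probe gave a difference of 0.71 against -5.14, so its 2 probes disagreed. The ribosomal protein genes Rps2 (-4.35) and Rpl28 (-4.35) followed. Rps2 had 2.38 in AGO2-RIP, 2.97 in IgG-RIP and 6.73 in input, so both precipitates lay well below input. Nubp2 (-4.16), of cytosolic iron-sulfur cluster assembly, Nudt2 (-3.99), a nucleotide hydrolase, Rpl26 (-3.89), Rpl21 (-3.82), Rpl31 (-3.51), Gins3 (-3.49), a subunit of the replicative helicase complex, and Ybx1 (-3.48), an RNA-binding cold shock protein, were also among the 15 lowest. The remaining 5 were the predicted genes Gm8460, Gm13777, Gm6177, Gm12770 and Gm5445, between -4.02 and -3.47. Probes of ribosomal protein genes and of near-identical copies can share signal, so such copies are not separate evidence.

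Several probes of a gene can check each other within the arrays. Of 3441 genes with at least 2 measured probes, 521 were 2-fold higher by their brightest probe, and for 222 of them (42.6%) all probes passed 2-fold, while 138 had a probe of the other sign. Of the 841 that were 2-fold lower, 541 (64.3%) did so with all probes and 103 had a probe of the other sign. By the median of their probes, the 10 highest with all probes past 2-fold were Lpar6 (3.92 and 3.99), a receptor for lysophosphatidic acid, Tet2 (3.65 and 4.13), an enzyme that oxidises methylated cytosine, Mink1, Rnf167, Stk35, Zfp367, Flcn, Tiparp, Hmga2 and Ccne1. The 10 lowest were Rps2, Rpl28, Rpl26 (-4.47 to -3.89), Ybx1 (-4.09 to -3.30), Supt4b, Rpl31-ps12, Bag1, Rpl23a, Arl6ip4 and Rps15.

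Many genes were detected in AGO2-RIP alone. There were 3121 above background in AGO2-RIP and not in input, against 701 in input and not in AGO2-RIP. A bound past 2-fold was held by 694 of the 3121 and by 582 of the 701. The lowest log2 signal above background was -2.62 on the WT AGO2-RIP array and -1.94 on the WT input array. The AGO2-RIP array also had more spots well above background, 44.6% against 37.6%. Detection in AGO2-RIP alone is therefore not by itself a higher level there. The part of these limits in the counts was not tested. The largest bounds were at least 70.5-fold for Gna11, a G protein subunit, and at least 62.2-fold for Btg2, an antiproliferative gene that binds the deadenylase complex. They were followed by B3gnt7, the clock gene Per1 (at least 21.1-fold), Cldn12, the activation marker gene Cd69 (at least 16.6-fold), BC052040 and Zfp568. The largest bounds the other way were for Vmn1r7 (at least 34.7-fold lower), Morc2b, 1700024G13Rik, Npy6r, Pigk, Arl3, Rsph3a and Il1rn, the interleukin receptor antagonist (at least 12.9-fold lower).

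Let-7 targets had the highest median of 36 lists. The lists were chosen with earlier results of these data known, so the rank is a description only. Of 32 listed genes 21 were measured, of which 15 were higher by 2-fold or more and 1 was lower by as much, with a median of 1.83 against -0.24 for all genes. Arid3b had 4.47 in AGO2-RIP, 0.35 in IgG-RIP and 0.12 in input, a difference of 4.36. Hmga2, an architectural chromatin protein and a classical let-7 target, had 5.55, 2.2 and 2.08 on the same arrays, a difference of 3.47, and its second probe, which holds the site printed above, gave the same difference to 2 decimals. Arid3a (3.56), the zinc finger gene Plagl2 (3.29), the kinase gene Map4k3 (2.86), the haem-regulated repressor gene Bach1 (2.59), the cell cycle phosphatase gene Cdc25a (2.54) and the receptor gene Tgfbr1 (2.41) followed.

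The other members were few. Gnptab (0.95), Ccnd1 (0.89), Dicer1 (0.71) and Nras (0.37) were among the 5 that lay within 2-fold. On 18 of the 21 genes the AGO2-RIP level was the highest of the 3 WT arrays, which held for 23.5% of all measured genes, and Trim71 differed in that IgG-RIP (1.79) exceeded AGO2-RIP (0.41) and input (-0.96). Of the 11 listed genes that were not measured, 7 were above background on neither array. The other 4 were above background in AGO2-RIP alone, and were at least 10.5-fold (Nr6a1), 7.05-fold (E2f5), 3.22-fold (Rictor) and 2.28-fold (Fas) higher there. Of all genes above background in AGO2-RIP alone, 694 of 3121 had a bound past 2-fold. Lists of other miRNAs held such bounds too, for 2 of 4 such miR-21 targets, 1 of 3 of miR-17-92, 1 of 1 of miR-155 and 0 of 1 of miR-223. The list kept 14 or more genes 2-fold higher under each of the 8 alternative settings.

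**Figure D2:**
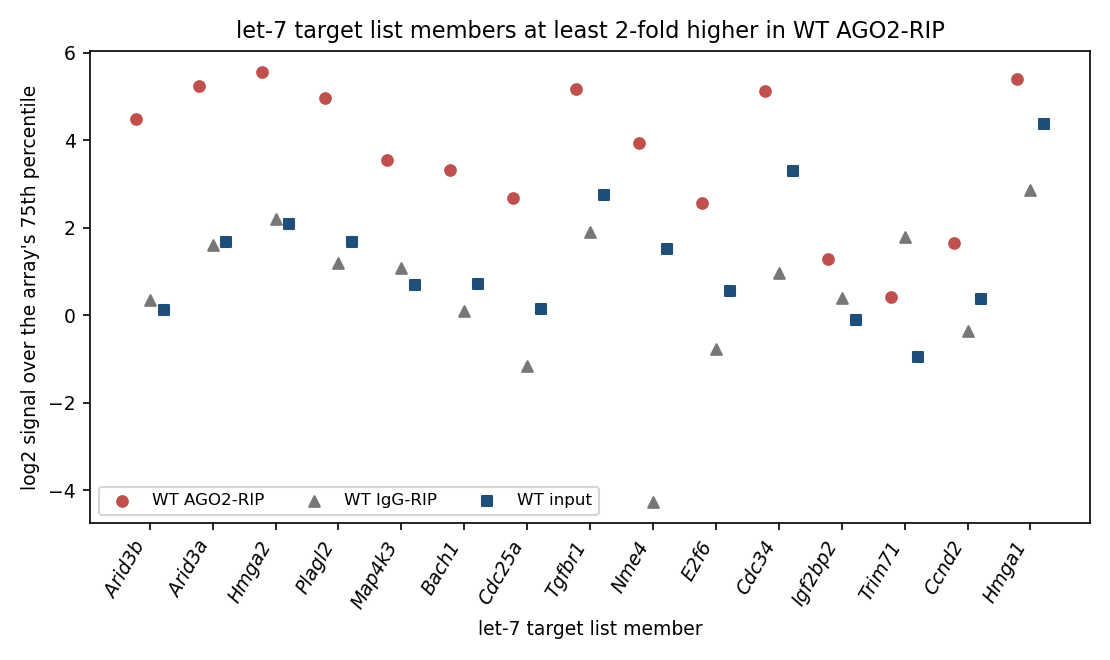
Log2 signal over the array's 75th percentile of the 15 let-7 target list genes at least 2-fold higher in AGO2-RIP, on the WT AGO2-RIP, WT IgG-RIP and WT input arrays, in order of the AGO2-RIP minus input difference. The AGO2-RIP point is the highest of the 3 for each gene but Trim71, and the IgG-RIP value of Nme4 was not above background.

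The probes themselves allowed a second view of the miRNAs, over letters and not over listed targets. The let-7 match CTACCTC occurred in 0.367% of all probes, and 66 probes with it were measured, each under a different name. Some had nearly the same letters around the match and are not separate evidence. Examples are Pced1b (3.47) with an unnamed chromosome 13 probe (3.50), and Gng5 (1.93) with another unnamed probe (1.81). Of the 66 probes 27 (40.9%) were higher by 2-fold or more in AGO2-RIP and 7 (10.6%) were lower, with a median of 0.77, against 14.3% higher and a median of -0.27 for probes without it. Of the printed sites, Hmga2 had 3.94 in AGO2-RIP, -1.91 in IgG-RIP and 0.48 in input on that probe, and Gng5, a G protein gamma subunit, had 7.36, 3.29 and 5.43. Zfp975 had 2.62 in AGO2-RIP and 2.22 in IgG-RIP, against -0.86 in input, so on the probe with the site its 2 precipitates were alike, while its brightest probe by the mean of the AGO2-RIP and input levels, the measure by which each gene's probe was taken, gave 1.81 in AGO2-RIP, 0.03 in IgG-RIP and 0.48 in input. Tgm2, a transglutaminase, had 2.36 in AGO2-RIP, 3.55 in IgG-RIP and 4.21 in input.

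The reverse complement GAGGTAG, as a match on the other strand, occurred in 0.258% of probes, and 7 of 38 measured (18.4%) were higher and 7 lower. Over the let-7 match the median IgG-RIP minus input difference was -0.02, against -0.50 for probes without it, from the same input array. In the list and in the probes only Hmga2 was shared, so the counts rest on different genes. The probes are 60 bases long and most often cover a small part of a transcript, so a gene without a match in its probe may hold a site elsewhere.

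Other seeds gave a range. The miR-142a-3p match ACACTAC was in 0.260% of probes, and 34.0% of 47 measured probes were at least 2-fold higher (median 0.41), while that for miR-19b-3p, TTTGCAC (0.457% of probes), gave 32.6% of 95 (median 0.30). Their reverse complements GTAGTGT (0.273%) and GTGCAAA (0.412%) gave 11.7% and 17.6%. The match of miR-17-5p and miR-20a-5p, GCACTTT (0.387%), gave 25%, and that of miR-92a-3p, GTGCAAT (0.297%), 23.9%. The letters of miR-155-5p, AGCATTA (0.363%), had a share of higher probes near the background (15.2%) but more lower ones, 43.9% against 25.9% for the reverse complement TAATGCT (0.347%), with a median of -0.78. Near the background for higher probes were also those of miR-223-3p, AACTGAC (0.338%), with 14.3%, and miR-16-5p, TGCTGCT (0.821%), with 15.6%. The miR-10a-5p match ACAGGGT (0.351%) lay lowest, with 7.60% higher and 40.5% lower. The letters were read on both strands, the reverse complement giving a background of the same length, and no match says only that the letters are not in the probe.

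**Figure D3:**
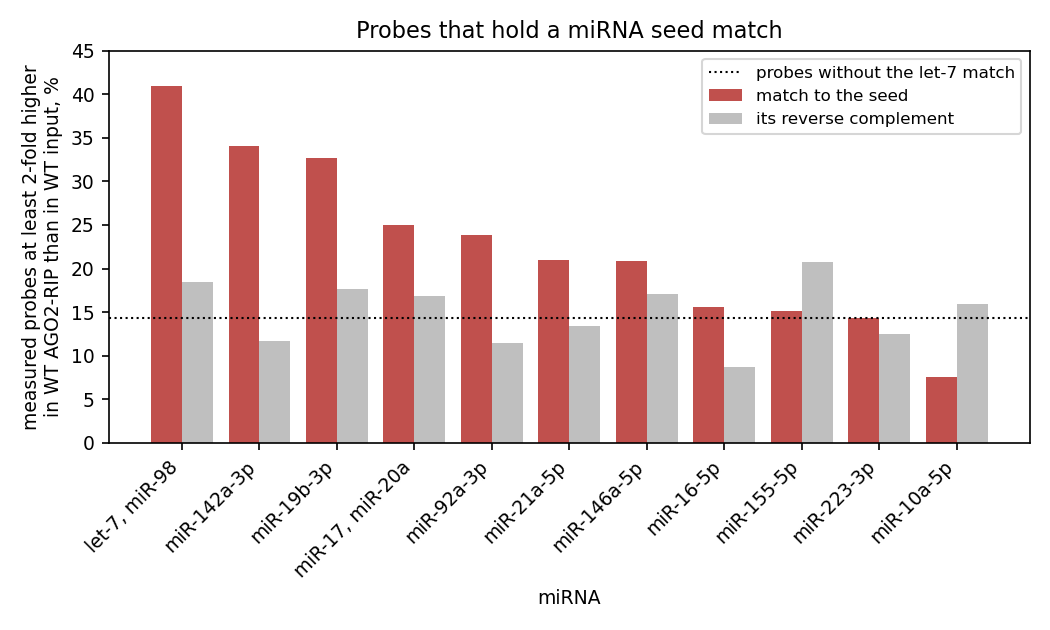
Percentage of measured probes at least 2-fold higher in WT AGO2-RIP than in WT input among probes that hold the match to a miRNA seed (left bar) or its reverse complement (right bar), with the percentage for probes without the let-7 match as a dotted line at 14.3%. Let-7, miR-142a-3p and miR-19b-3p stand highest, at 40.9%, 34.0% and 32.6%.

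Listed targets of other miRNAs lay closer to the median of all genes. Of 19 measured miR-155 targets 4 were higher and 3 lower (median -0.16), with Jarid2, a Polycomb-associated gene, at 2.90 and Rhoa, a small GTPase, at -1.54. Jarid2 had 1.82 in AGO2-RIP, 1.78 in IgG-RIP and -1.09 in input, so both precipitates were as high. Of 13 miR-223 targets 4 were higher and 3 lower (median 0.28), led by Rhob (1.99) and the inflammasome gene Nlrp3 (1.52). Of 13 miR-17-92 targets 4 were higher and 1 lower (median -0.05), led by E2f3 (2.04) and the pro-apoptotic gene Bcl2l11 (1.92). The lists of miR-21 (7 measured, 1 higher, 0 lower) and miR-146a (8 measured, 2 higher, 3 lower) did not keep their side of the median of all genes under every setting.

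Of 5 measured Argonaute and GW182 genes 4 were 2-fold higher and 0 lower in AGO2-RIP. The count fell to 2 with arrays centred on the median, and to 3 with quantile normalization, normexp or the median of a gene's probes. Without a filter on dim probes it was 6 of 7. Tnrc6a, a GW182 scaffold, had 3.16 in AGO2-RIP, 0.18 in IgG-RIP and -0.95 in input, a difference of 4.11. Tnrc6c (2.18) and Ago1 (1.05) were also past 2-fold, and Ago4 was not (0.14). Ago2, whose protein the antibody holds, had 3.29 in AGO2-RIP, 3.82 in IgG-RIP and 2.2 in input, and its 3 probes gave differences from -0.19 to 1.09. Ago3 and Tnrc6b were above background in AGO2-RIP and not in input, each at least 1.78-fold higher, though Ago3 had 0.83 in IgG-RIP against -1.11 in AGO2-RIP. Over the 5 measured genes the AGO2-RIP minus input median was 1.09 and the IgG-RIP minus input median 1.12, while the AGO2-RIP level was the highest of the 3 WT arrays for 4 of them.

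Downstream of GW182, 9 of 26 measured deadenylation and decapping genes were 2-fold higher and 1 was lower (median 0.55). Patl1, a decapping scaffold, had 4.73 in AGO2-RIP, 1.57 in IgG-RIP and 1.81 in input (2.92). The decapping gene Dcp1a (2.36), Zfp36, which encodes the mRNA-destabilising protein tristetraprolin (2.09), and Tob2 (1.63) followed, and Cnot9, a subunit of the deadenylase complex, was the one lower (-2.06). Of 12 miRNA biogenesis genes 2 were higher and 1 lower (median -0.20), with Tarbp2, a Dicer partner, at 1.61 and Drosha, which cuts the primary miRNA transcripts, at -1.58. Dicer1 was within 2-fold (0.71), and Lcor, a nuclear receptor corepressor, was higher (2.22). Apoe was left out because 1 of its 10 spots was an outlier, and over the other 9 its level was -0.83 in AGO2-RIP, 0.55 in IgG-RIP and 0.16 in input. Its signal was above background on all 6 arrays although all samples carry Apoe-/-, and whether the probe lies in the deleted part was not analysed here.

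Short-lived transcripts of signalling were next. Of 37 immediate early genes, which respond within minutes to stimuli, 21 were measured, 10 were 2-fold higher and 2 lower, with a median of 0.94. Beside Dusp2 these were Fosl2 (4.27, with another probe at 1.05), an AP-1 subunit, the phosphatase gene Dusp1 (4.01), Klf2 (2.93), Myc (2.69), Zfp36, Egr1, Klf10, Ier3 and Dusp4. Dusp1 had 5.61 in AGO2-RIP, 2.05 in IgG-RIP and 1.59 in input. Egr1 had 3.20 in AGO2-RIP, 3.69 in IgG-RIP and 1.49 in input, so control IgG gave as much. Jun (-0.17), Junb (-0.56) and Jund (-0.43) were within 2-fold, and Atf3 and Klf4 were lower (-1.33 each).

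Stress genes were split. Of 18 measured genes of the integrated and unfolded protein stress responses 5 were higher and 10 lower (median -1.05), with Ddit4, Chac1, Sesn2 (2.30), Dnajb9 (1.67) and Herpud1 (1.26) above and Cebpg (-2.73), Ddit3 (-2.28), the co-chaperone gene Dnajb1 (-1.92) and the chaperone gene Hspa5 (-1.63) below. Of 21 measured p53 targets 8 were higher and 2 lower (median 0.57). The pro-apoptotic gene Bbc3 had 6.11 in AGO2-RIP, 1.77 in IgG-RIP and 2.06 in input (4.05), and Plk2 (3.95), the death receptor gene Tnfrsf10b (2.93) and Trp53inp1 (2.45) followed. Bax (-1.16), also pro-apoptotic, and Aen (-1.13) were lower.

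Cell cycle genes spread both ways. Of 47 measured genes 16 were higher and 7 lower (median 0.29). Among the higher ones were Ccne1 (4.38), the kinase gene Wee1 (4.29), the cyclin gene Ccnd3 (3.50), the inhibitor gene Cdkn1b (3.43), Ccnf (3.37) and Cdc25a (2.54). Ccnd3 had 6.85 in AGO2-RIP, 3.01 in IgG-RIP and 3.34 in input. The lower ones were Top2a (-1.61), E2f1 (-1.58), Cdk6 (-1.48), the helicase subunit gene Mcm7 (-1.42), the replication clamp gene Pcna (-1.28), Cdk4 (-1.17) and Rrm1 (-1.16).

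Nuclear regulators as a group stood above the median. Of 186 numbered zinc finger genes 56 (30.1%) were higher and 14 (7.53%) lower, with a median of 0.48, led by Zfp367 (3.25), Zfp770 (3.24) and Zfp11 (3.04) and ending with Zfp688 (-2.31). Of 50 chromatin regulators 16 were higher and 2 lower (median 0.38). Tet2 had 4.77 in AGO2-RIP, 2.39 in IgG-RIP and 0.65 in input (4.13), and Setd1b, a histone methyltransferase, had 5.20, 1.17 and 1.36 (3.84). Tet3 (2.57) and Kmt2c (2.41) came next, with Hdac5 (-2.09) and Ep300 (-1.55) lower. In IgG-RIP minus input the zinc finger and chromatin lists had medians of 0.05 and 0.10, against -0.49 for all genes. Over intergenic lincRNA probes, 255 of 1831 (13.9%) were higher and 271 (14.8%) lower, against 14.8% and 26.3% of all genes. In IgG-RIP minus input 597 of 1704 lincRNA probes were 2-fold higher and 324 lower. Their median there was 0.55, against 0.05 in AGO2-RIP minus input.

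The lowest group was the cytosolic ribosome. Of 79 listed genes 78 were measured, 73 were 2-fold or more lower and 0 higher in AGO2-RIP, with a median of -2.24. Among these genes the median level was 5.26 in AGO2-RIP, 4.87 in IgG-RIP and 7.25 in input, and input was the highest of the 3 arrays for 76. Of the 62 genes with several probes, 48 were 2-fold lower on all of them. The exceptions were Rps3 (0.70, with another probe at -1.55), Rpl38 (0.57), Rpl14 (-0.30), Rps27a (-0.63) and Rps29 (-0.77). Rpl38 had 8.44 in AGO2-RIP, 5.38 in IgG-RIP and 7.87 in input, and so stood apart from the other ribosomal genes in AGO2-RIP.

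**Figure D4:**
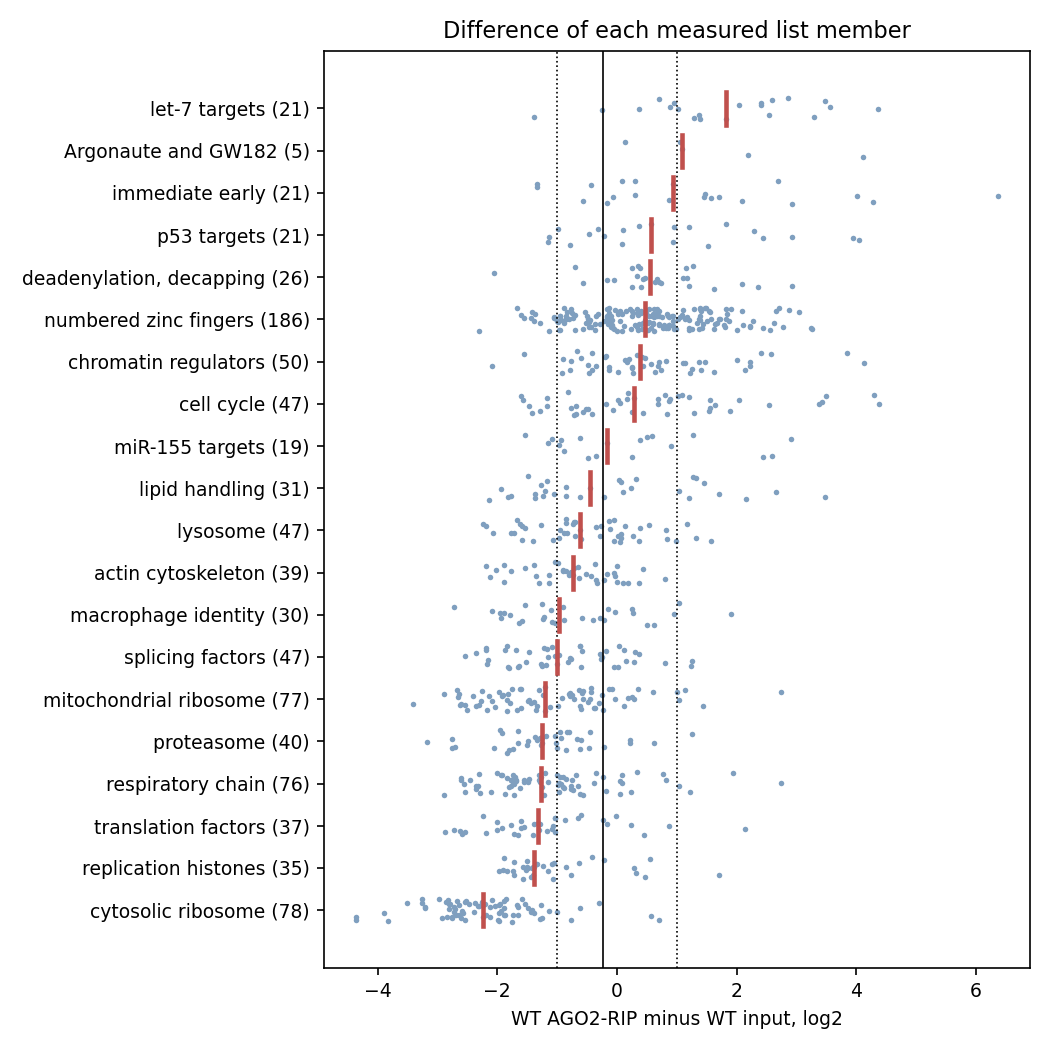
AGO2-RIP minus input difference in Dicer WT (log2) of each measured member of 20 gene lists, 1 point a gene, with the list median (red bar), the median of all genes at -0.24 (solid line) and 2-fold either way (dotted). The number of measured members stands in brackets, and let-7 targets (median 1.83) and the cytosolic ribosome (median -2.24) form the ends.

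Other abundant housekeeping groups had medians below that of all genes. Of 37 translation factors 27 were lower and 1 higher (median -1.32), with Tpt1 (-2.87), a translationally controlled protein, and the elongation factor genes Eef1b2 (-2.72) and Eef2 (-2.63) lowest. Eef1g, of the same elongation complex as Eef1b2, was the higher one, at 7.70 in AGO2-RIP, 4.04 in IgG-RIP and 5.56 in input, and its 3 probes ran from 1.94 to 2.70. Of 35 measured replication histone genes 25 were lower and 1 higher (median -1.38). Of 76 respiratory chain genes 43 were lower and 4 higher (median -1.26), of 77 mitochondrial ribosomal protein genes 41 were lower and 5 higher (median -1.20), and of 40 proteasome genes 24 were lower and 1 higher (median -1.25). In IgG-RIP minus input the respiratory chain (-2.26), mitochondrial ribosome (-2.23), proteasome (-1.77) and replication histone (-1.51) medians were lower still. That of translation factors was -1.16, and that of all genes -0.49.

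Single genes left these groups upward. In the respiratory chain Ndufa3 (2.75, with another probe at 0.55), Ndufa4 (1.93), Cox5a (1.21) and Atp5g1 (1.04) were higher, though Atp5g1 had 6.55 in IgG-RIP, against 5.35 in AGO2-RIP and 4.30 in input, and another probe at -0.69. Mrpl44 (2.75) and Mrpl53 (1.44) led the mitochondrial ribosome, and Psmb2 (1.26), a core particle subunit, was the higher proteasome gene. Mrpl53 had 4.86 in AGO2-RIP, -0.22 in IgG-RIP and 3.41 in input, so AGO2-RIP was the highest and control IgG by far the lowest. Glycolysis and citric acid cycle genes (13 of 39 lower, 1 higher, median -0.60), actin cytoskeleton genes (13 of 39, or 33.3%, lower, 0 higher, median -0.74), secretory machinery genes (18 of 34 lower, 2 higher, median -1.04) and splicing factors (24 of 47 lower, 2 higher, median -1.0) followed. Their IgG-RIP minus input medians were -1.20, -1.38, -1.21 and -1.07, in that order. Gapdh, the glycolytic enzyme often used as a standard, had 5.89 in AGO2-RIP, 6.43 in IgG-RIP and 8.45 in input (-2.56), with 7 probes between -2.56 and -1.56.

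Of 30 measured macrophage identity genes 15 were lower and 2 higher (median -0.97), with an IgG-RIP minus input median of -1.11. Cd14, the endotoxin co-receptor, had 1.28 in AGO2-RIP, 2.28 in IgG-RIP and 4.01 in input (-2.73), and the complement genes C1qb (-2.09) and C1qa (-1.96) and the scavenger receptor gene Cd36 (-1.94) followed. The higher genes were Mrc1, the mannose receptor (1.90), and Msr1, a scavenger receptor (1.04). Itgam (-0.40), Csf1r (0.62), the receptor for macrophage growth factor, and C1qc (-0.03) were within 2-fold. Antigen presentation genes had 6 of 12 lower and 0 higher (median -0.94), with Cd74, the invariant chain, at -2.26.

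Lipid handling genes also spread both ways, in a list whose median (-0.46) changed side of the median of all genes when a gene was taken as the median of its probes. Of 31 measured genes 9 were higher and 12 lower. The higher ones held the cholesterol exporters Abca1 (2.66) and Abcg1 (1.28), the ubiquitin ligase gene Mylip (3.48) and the sterol synthesis gene Hmgcs1 (1.21). Abca1 had 5.17 in AGO2-RIP, 2.28 in IgG-RIP and 2.50 in input. The lower ones held the sterol synthesis gene Idi1 (-1.05) and its regulator Srebf2 (-1.49), Nr1h3, the sterol sensor LXR alpha (-2.14), Cd36 (-1.94), the lipid droplet gene Plin2 (-1.82) and the lysosomal carrier gene Npc2 (-1.78). Of 47 lysosome genes 13 were lower, a share of 27.7% near the 26.3% of all genes, and 3 higher (median -0.61, above the median of all genes with quantile normalization).

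Inflammatory genes spread both ways. Of 22 measured chemokine and cytokine genes 7 were higher and 5 lower (median 0.05), with Tnfsf9 (5.48), Cxcl9 (2.66) and the monocyte chemoattractant genes Ccl7 (2.47) and Ccl2 (2.29) highest and the growth factor gene Igf1 (-1.87) lowest. Ccl2 had 8.06 in AGO2-RIP, 4.28 in IgG-RIP and 5.76 in input, whereas Cxcl9 had 0.95, 0.88 and -1.71, so its precipitates were alike. Of 23 interferon-stimulated genes 6 were higher and 5 lower (median -0.05, on the other side of the median of all genes with quantile normalization), with the transcription factor genes Irf1 (4.29) and Irf9 (3.03) and with Parp9 (3.14) highest and the antiviral genes Oas3 (-2.95) and Bst2 (-1.94) lowest. Of 23 genes of NF-kB signalling and its feedback 3 (13.0%) were higher and 5 (21.7%) lower (median -0.04), shares near those of all genes, with Nfkbid (2.02) at the top and Irak3 (-2.21) at the bottom.

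Nuclear non-coding RNAs showed where control IgG exceeded AGO2. Xist had 3.92 in AGO2-RIP, 5.70 in IgG-RIP and 0.14 in input, Malat1 0.74, 2.37 and -1.74, and Neat1 3.12, 4.37 and 1.96. These 3 were the genes of 13 that were higher in AGO2-RIP (3.78, 2.48 and 1.16), and 6 were lower. Gas5 (-1.85, with another probe at 1.79), Snhg3 (-1.62) and Snhg1 (-1.43), hosts of small nucleolar RNAs, and Rmrp (-1.58) were among the lower ones.

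The difference went with abundance. To keep the input array of the comparison out of the grouping, genes were put in 4 equal groups by their level on the KO input array. From the lowest to the highest group the median difference was 0.14, -0.02, -0.37 and -0.93, and the share of genes 2-fold lower was 9.84%, 19.0%, 28.8% and 47.7%. The median IgG-RIP minus input difference ran the same way, from 0.69 to -1.47. All 78 cytosolic ribosomal protein genes lay in the highest group, where their median of -2.24 stood against -0.93. There the 23 macrophage identity genes had a median of -1.03 with 52.2% lower, against 47.7% of all genes in the group. The 32 actin cytoskeleton genes had -0.83, with 37.5% lower, and the 35 lysosome genes -0.60. In the same group the 27 proteasome genes had -1.04 with 51.9% lower, and the 64 respiratory chain genes -1.285 with 60.9% lower. The 23 mitochondrial ribosomal protein genes there had -1.39 with 60.9% lower, and the 26 translation factors -1.39 with 76.9% lower. By GC content of the probe, 20.4% of genes were 2-fold higher in the lowest of 4 groups and 9.56% in the highest. Probes with and without an Alu I or Rsa I site, the enzymes that cut the cDNA before labelling, had medians of -0.20 and -0.25. The part of abundance and GC content in the list differences was not tested.

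The KO pair shares no array with the WT pair. Of 13807 genes above background on all 4 arrays, KO AGO2-RIP exceeded KO input by 2-fold or more in 1842 (13.3%) and fell short by as much in 3980 (28.8%). In WT these were 2090 and 3625. Both pairs held 1108 genes higher, 53% of the WT and 60.2% of the KO genes, and 2767 lower, 76.3% of the WT and 69.5% of the KO genes. Only 24 genes were higher in WT and lower in KO, and 15 the reverse. Across genes the differences correlated at r = 0.80, as a description, since genes share arrays and abundance.

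Dusp2 (5.19), Ddit4 (4.06), Tnfsf9 (5.64) and Zc3hav1l (4.09) were high in KO too, with Klhdc3, Dsel, Rnf111 and Tsc22d3. Rps2 (-4.16), Rpl28 (-3.32), Gm8460 (-3.84), Rpl21 (-3.25), Gins3 (-3.44), Trappc5 (-3.46), Churc1 (-3.42) and Atg3 (-3.49) were low in KO as in WT. Slc32a1 was not (0.72), its input level being -0.39 in KO and 4.83 in WT. Of 20 let-7 targets on all 4 arrays 9 were higher and 1 lower in KO (median 0.77), and for 17 the WT difference exceeded the KO difference, as it did for 51.6% of all genes, with a median gap of 1.20 against 0.03. Other lists went the same way, with 5 of 5 Argonaute and GW182 genes (median gap 1.5), 17 of 21 p53 targets (0.75), 34 of 45 cell cycle genes (0.65) and 19 of 25 deadenylation and decapping genes (0.49). Arid3b had 4.36 in WT and 1.48 in KO, Arid3a 3.56 and 1.22, and Lcor 2.22 and -0.23. The input levels of these genes also differed between WT and KO. Lcor had 0.42 in WT and 2.82 in KO input, with 2.65 and 2.59 in AGO2-RIP. Arid3b had 0.12 and 1.84 in input, with 4.47 and 3.32 in AGO2-RIP. Arid3a had 1.67 and 2.87 in input, with 5.23 and 4.09 in AGO2-RIP. Probes with the let-7 match had a median of 0.10 in KO, against -0.37 for probes without it, and of 0.77 in WT, against -0.27. For cytosolic ribosomal protein genes the WT difference exceeded the KO difference in 16 of 78. Genotype, slide row, the sex-linked transcripts and the level of Lyz2 cannot be told apart in these gaps.

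**Figure D5:**
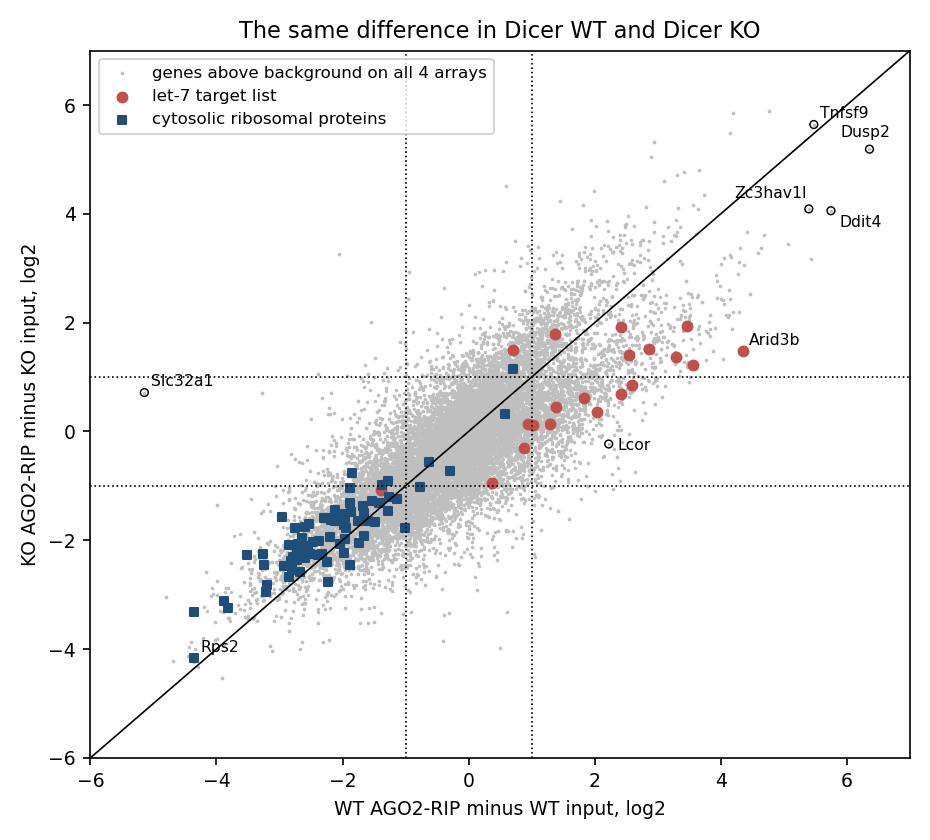
AGO2-RIP minus input difference (log2) of 13807 genes in Dicer WT (horizontal) and Dicer KO (vertical), with equality (solid) and 2-fold either way (dotted). Let-7 target list members (circles) lie below the line of equality for 17 of 20 genes, and cytosolic ribosomal protein genes (squares) are low in both.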

How the data were processed

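The authors deposited scanner tables of 1-colour Agilent arrays, 1 for each of 6 samples. The submitters' processing notes name Feature Extraction 10.7.3.1. Per the labels' protocols, RNA was pre-amplified and 500 ng of cDNA was cut and labelled by random priming, so that all values are relative abundances. The column of processed signals, used here, holds intensity values with background subtracted, per the file headers. From it log2 values were computed, and the 75th percentile of the non-control spots was subtracted (the deposited intensities hold no log2 values of this kind). Each probe was the mean of its spots, 368 probes were dropped for an outlier spot on any array and 55313 kept, and a gene was its brightest measured probe. RefSeq (GRCm38.p6) gave names to 27326 probes through accessions, to 3393 through symbols and to 320 through synonyms, and the other 24274 have the array's name. A dim gene has a bound, the bright value against the higher of its own dim value and the lowest signal above background on that array. Sites were searched in the probes. Gene length could be matched for 70.5% of genes, under 80%, so that check is void.

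The named genes were the 15 highest and 15 lowest with a symbol, the 10 highest and 10 lowest with several probes past 2-fold, Dicer1, Lcor, Apoe and the Argonaute and GW182 genes, up to 4 members at each end of a list, 8 bounds each way and 8 genes each way past 2-fold in both genotypes. Further list members were named after their values were seen. The members, lists and settings were chosen with earlier results of these data known, and leaving out only outlier spots was added after seeing the files. The scaling and the 2-fold cut were tested on simulated gene values with planted fold changes, and the other steps were not. Values were computed with Python 3.11.15, numpy 2.4.6 and pandas 2.3.3, and normexp (offset 50) and quantile normalization with limma 3.58.1 in R 4.3.3. Figures used matplotlib 3.10.9. Some named genes are not reported here.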

Additional observations from a re-analysis of the deposited data

How the results depend on the processing

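Of the 2 counts, genes 2-fold higher ranged within 1.5 times of 2136 except without a filter on dim probes (4980 of 34536 genes), and genes 2-fold lower within 1.5 times of 3790 except with normexp (2410) and without the filter (6154). List medians relative to the median of all genes turned over for 5 of the 33 lists that lay at least the spot noise of 0.18 from it: with quantile normalization miR-21 targets (-0.063), lysosome genes (0.12) and interferon-stimulated genes (-0.0222), with normexp miR-21 targets (-0.0568), with probes above background on all 6 arrays miR-146a targets (-0.15), and with the median of a gene's probes lipid handling (0.0461). Of the 3 lists nearer to it 2 turned over, miRNA biogenesis (-0.28 with probes above background on all 6 arrays) and fatty acid oxidation (0.25 without the filter). The cause was not tested. Of 223 named differences past 2-fold 0 changed sign under the 8 settings where they could be measured, and of 63 within 2-fold 18 did, among them Rps3 (-1.52 with the median of its probes). The other scalings of the percentile or median shift every gene alike, by 0.35 or -0.28, which cannot turn a difference past 2-fold. Without the filter, or with only outlier spots left out, 0 named differences moved, and with probes above background on all 6 arrays 1 did. The 0 of 223 therefore rests on normexp, quantile normalization and the median of a gene's probes. The let-7 median relative to all genes stayed between 1.88 and 2.15, and that of cytosolic ribosomal proteins between -2.02 and -1.55. No paired analysis was possible because each WT group held 1 array, under a single replicate number, and the KO pair, of another genotype and slide row, is no replicate of it. Signal over background limits low genes, and spot noise leaves out the spread between cultures and precipitations.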
